A study of Mus musculus with 6 samples.

Results

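The titin, nebulin and Z-disc scaffold is described here by 10 genes, namely Ttn, Neb, Nrap, Ldb3, Tcap, Myoz1, Myoz2, Actn2, Actn3 and Csrp3. They were taken by name, each matched to 1 Ensembl identifier, from the 37991 genes counted in each of 6 RNA-seq libraries. Counts were found for 9 of the 10, and Nrap was listed at 0 in all 6 libraries.

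The RNA came from C2C12, an established mouse myoblast line labelled as of C3H strain, which leaves the cell cycle and fuses into myotubes in low serum. All cells carried a lentiviral short hairpin, either against luciferase (sh-Luc, called control here) or against Kap1 (sh-Kap1, called knockdown), the co-repressor scaffold encoded by Trim28. Proliferating myoblasts (MB) in fetal calf serum gave 2 control and 2 knockdown libraries. Cells 48 hours into differentiation (MT), in horse serum with insulin, transferrin and selenium, gave 1 library of each arm. The labels describe cytoplasmic polyA RNA and do not state separate cultures, so the spread behind each p-value is that between these libraries and may be technical only.

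A sarcomere, the contractile unit of striated muscle, is bounded by Z-discs, where alpha-actinin crosslinks thin actin filaments of opposite polarity. Titin is a giant protein that spans from the Z-disc to the M-band in the middle of the sarcomere and acts as a molecular spring, and nebulin lies along the thin filament and stabilises it. Around the alpha-actinin lattice sit small adaptors that join titin, actin and signalling enzymes, among them telethonin, the myozenins, the PDZ-LIM protein encoded by Ldb3 and the muscle LIM protein encoded by Csrp3. These genes are switched on when myoblasts differentiate, downstream of the myogenic bHLH factors, which bind E-boxes, and of MEF2 proteins.

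Sequences upstream of the start site were found for 6 of the 10 genes in a RefSeq promoter table (GRCm38.p6, a later build than the mm9 of the counts), and are given as windows of 250 bases that end at the start site. The 5 shown are those of genes with counts, chosen because these genes were all higher on differentiation of control cells but kept very different shares of that level after knockdown. Capitals mark each E-box (CANNTG), MEF2 consensus and CArG box (bound by serum response factor) found on either strand.
Ttn (chr2:76982548-76982797, minus strand): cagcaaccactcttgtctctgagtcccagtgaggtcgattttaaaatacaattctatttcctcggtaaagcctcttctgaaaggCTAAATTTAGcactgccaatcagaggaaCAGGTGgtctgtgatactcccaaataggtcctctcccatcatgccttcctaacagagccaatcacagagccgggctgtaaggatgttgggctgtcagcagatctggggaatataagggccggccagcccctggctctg
Actn2 (chr13:12340733-12340982, minus strand): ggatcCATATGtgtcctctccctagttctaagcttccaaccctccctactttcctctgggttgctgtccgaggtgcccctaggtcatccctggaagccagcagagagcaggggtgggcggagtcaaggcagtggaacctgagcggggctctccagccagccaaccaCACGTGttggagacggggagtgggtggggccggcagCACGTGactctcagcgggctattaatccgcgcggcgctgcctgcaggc
Ldb3 (chr14:34588682-34588931, minus strand): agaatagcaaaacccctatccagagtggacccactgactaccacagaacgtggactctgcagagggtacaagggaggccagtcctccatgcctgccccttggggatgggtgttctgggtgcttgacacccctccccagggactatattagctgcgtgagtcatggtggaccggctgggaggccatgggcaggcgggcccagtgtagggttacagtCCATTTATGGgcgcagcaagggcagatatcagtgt
Myoz2 (chr3:123034988-123035237, minus strand): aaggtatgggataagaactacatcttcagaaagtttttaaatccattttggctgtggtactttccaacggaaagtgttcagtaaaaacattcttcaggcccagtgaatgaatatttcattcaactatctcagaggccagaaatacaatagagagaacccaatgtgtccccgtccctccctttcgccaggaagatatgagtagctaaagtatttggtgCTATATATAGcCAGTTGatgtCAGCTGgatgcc
Csrp3 (chr7:48848052-48848301, minus strand): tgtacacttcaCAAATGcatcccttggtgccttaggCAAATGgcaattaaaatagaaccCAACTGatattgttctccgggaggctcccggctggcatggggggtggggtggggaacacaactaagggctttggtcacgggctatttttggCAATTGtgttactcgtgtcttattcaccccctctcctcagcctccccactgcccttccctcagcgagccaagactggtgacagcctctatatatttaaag
The Ttn window held 1 E-box, CAGGTG, and 1 MEF2 consensus, CTAAATTTAG. The Myoz2 window held 1 MEF2 consensus, CTATATATAG, and 2 E-boxes between it and the start site, one of them CAGCTG, a form bound by MyoD and myogenin. Actn2 had 3 E-boxes, 2 of them CACGTG, and the Csrp3 window shown had 4. Ldb3 had no E-box in its window and 1 CArG box, CCATTTATGG. Of all 32851 windows of this length, 66.2% held a CANNTG, 13.0% a CAGCTG (also counted as a CANNTG), 2.92% a MEF2 consensus and 1.47% a CArG box. CATTCC and TATAAA were also searched and had no match in the windows of the 6 genes, against 12.6% and 12.4% of all windows. These are matches of letters only, and no binding was measured.

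The libraries held 36247530 to 49839994 counts on genes. Trim28 stood at 101 to 152 CPM (counts scaled to library size) in the knockdown libraries and at 382 to 587 CPM in the control libraries. The sum over 5 markers of differentiated skeletal muscle (Myog, Mymk, Myh3, Ckm and Acta1) was 5715 CPM in MT control and 91.9 CPM in MT knockdown, and ran from 9.89 to 104 CPM in the MB libraries. Myoblast markers summed to between 386 and 1011 CPM in the MB libraries, 1740 CPM in MT control and 799 CPM in MT knockdown. Des gave 1209 CPM of the sum in MT control. Between the MT libraries 4 of the 5 were lower in knockdown, among them Myod1 (233 and 27.5 CPM in control and knockdown). Myf5 was higher, at 34.8 and 82.4 CPM. Smooth muscle markers summed to between 1355 and 5897 CPM. Osteoblast markers stayed at or under 53.6 CPM, adipocyte markers at or under 11.6 CPM and macrophage markers at or under 4.58 CPM, with Adipoq and Adgre1 at 0 in all libraries. Of 7 cardiac markers, 4 stayed under 1 CPM throughout, while Myh6 reached 41.4 CPM in MT control. Gata4 stood at 20.7 to 27.1 CPM over the 6 libraries and Nkx2-5 at 0.863 to 2.61 CPM. The file names of both MT libraries and of replicate 1 of each MB group share a tag that those of replicate 2 lack, with no source here to say what it denotes. For this reason 2 fits are given, the first with a mean per group and the second with an added term for the tag.

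In control cells the counted scaffold genes were at their highest after 48 hours of differentiation, and in knockdown cells at that time most of them stood within the range of the myoblast libraries. The 10 genes together held 2404 CPM in the MT control library and 123 CPM in the MT knockdown library. The MB control libraries held 40.1 and 97.1 CPM, and the MB knockdown libraries 52.7 and 114 CPM. Ttn alone gave 66.0% of the scaffold counts in MT control but 20.8% in MT knockdown, where Actn3 with 46.9% and Ldb3 with 25.3% took most. In RNA from whole cultures, fewer differentiated cells and less of these transcripts per cell cannot be told apart.

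**Figure D1:**
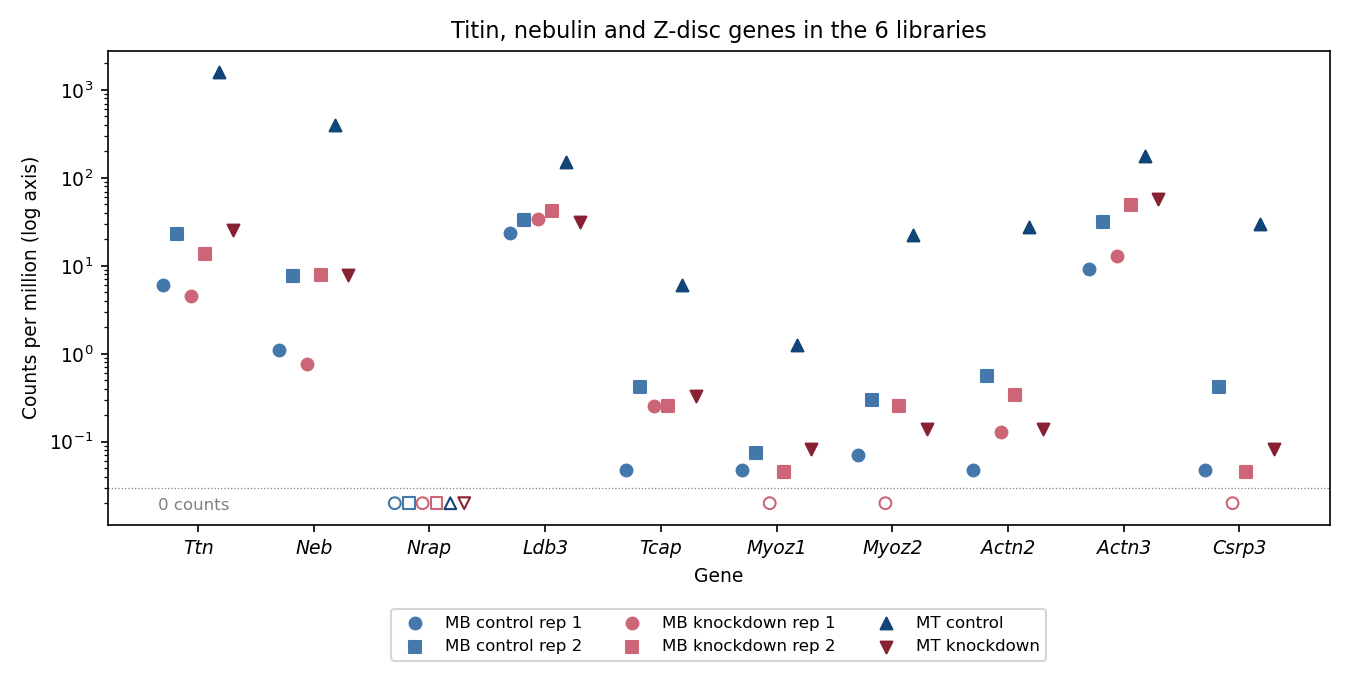
CPM (log axis) of the 10 genes in each of the 6 libraries, 1 point per library, with 0 counts drawn at the foot of the plot. The MT control library is above all other libraries for all 9 counted genes, and replicate 2 of MB control is above replicate 1 for the same 9.

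Ttn (ENSMUSG00000051747, on chromosome 2), the titin gene, had 5.98 and 22.9 CPM in the MB control libraries and 4.50 and 13.5 CPM in the MB knockdown libraries. It reached 1587 CPM in MT control and 25.6 CPM in MT knockdown. MT knockdown was slightly above the highest MB library and far below MT control. Neb (ENSMUSG00000026950, chromosome 2), the nebulin gene, had 1.10 and 7.63 CPM in MB control, with 0.772 and 7.90 CPM in MB knockdown. It reached 400.3 CPM in MT control and 7.86 CPM in MT knockdown, a value between those of the replicate 2 libraries of the MB arms. A later annotation places antisense genes opposite both, and a processed pseudogene on the same strand as Neb. With no stated annotation or strand setting, reads there may have been counted for Ttn or Neb or set apart as ambiguous. Which of these held was not tested.

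Of the sarcomeric alpha-actinins, Actn2 (ENSMUSG00000052374, chromosome 13) encodes the form of the heart and of all skeletal fibres, and Actn3 (ENSMUSG00000006457, chromosome 19) the form of fast fibres. Actn2 was almost silent outside the MT control library. It had 0.0477 and 0.566 CPM in MB control, 0.129 and 0.343 CPM in MB knockdown, 27.7 CPM (1382 counts) in MT control and 0.138 CPM (5 counts) in MT knockdown. Actn3 was counted in myoblasts already, with 9.22 and 31.2 CPM in the control libraries against 12.9 and 49.1 CPM after knockdown. It stood at 178 CPM in MT control and 57.7 CPM in MT knockdown, which was above all 4 MB libraries.

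Ldb3 (ENSMUSG00000021798, chromosome 14), whose PDZ-LIM protein (ZASP or Cypher) binds alpha-actinin at the Z-disc, varied least. Its level was 23.5 and 33.6 CPM in MB control, 34.2 and 42.3 CPM in MB knockdown, 152 CPM in MT control and 31.1 CPM in MT knockdown. The MT knockdown value lay inside the range of the MB libraries. Tcap (ENSMUSG00000007877, chromosome 11) encodes telethonin, the cap that joins titin molecules at their Z-disc ends. It had 2 and 17 counts in control myoblasts, 12 and 11 in knockdown myoblasts, 304 (6.10 CPM) in MT control and 12 (0.331 CPM) in MT knockdown.

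The myozenins (calsarcins) tether the phosphatase calcineurin to the Z-disc, Myoz1 (ENSMUSG00000068697, chromosome 14) mainly in fast and Myoz2 (ENSMUSG00000028116, chromosome 3) in slow and cardiac muscle. Myoz2 had 3 and 12 counts in MB control, 0 and 11 in MB knockdown, 1105 (22.2 CPM) in MT control and 5 in MT knockdown. Myoz1 was the rarest counted gene, with 2 and 3 counts in control myoblasts, 0 and 2 in knockdown myoblasts, 63 (1.26 CPM) in MT control and 3 in MT knockdown. Csrp3 (ENSMUSG00000030470, chromosome 7), the gene of muscle LIM protein, had 2 and 17 counts in the control myoblasts, 0 and 2 after knockdown, 1479 (29.7 CPM) in MT control and 3 in MT knockdown. These 3 genes had at most 17 counts in every library but MT control.

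Nrap (ENSMUSG00000049134, chromosome 19) encodes a nebulin-related protein that anchors actin at the ends of growing myofibrils. Its 0 counts allow up to 0.0602 CPM in MT control and 0.0828 CPM in MT knockdown, by the limit of 3 counts. In GENCODE M21 Nrap is overlapped on the opposite strand by Habp2 and by an antisense gene, and the files set reads on more than 1 gene apart as ambiguous (2.81% to 2.93% of reads). Their part in the 0 of Nrap was not tested.

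On differentiation of control cells all 9 counted genes were higher, least for Ldb3. The largest ratio was that of Csrp3 against the MB control replicate that shares the file tag, and that of Myoz2 against the other. The intervals of both overlapped those of several other genes. The first fit called 0 of the 9, and 0% of all 16472 genes tested (edgeR quasi-likelihood, Benjamini-Hochberg adjustment, threshold 0.05). All 9 had an unadjusted p under 0.05, as did 25.3% of all genes, and DESeq2 called 8, against 14% of all genes. With the tag term all 9 rose, where 22.3% of all tested genes were called higher and 22.6% lower. Myoz1 (63 counts in MT control, at most 3 elsewhere) passed the low-count filter only through MT control, so its direction was fixed in advance. Each such test has 1 MT library per arm and assumes that it varies as the MB libraries do. With the tag term, that spread is only what remains after the difference between the MB replicates is taken off. As both MT libraries carry the tag, the change with that term is set against MB at the level of replicate 1.

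Against the tag-sharing replicate 1, MT control was 265 times as high for Ttn (exact 95% interval 234 to 301, counting error only) and 365 times for Neb (274 to 499). The ratios were 19.3 (17.4 to 21.4) for Actn3 and 6.48 (6.06 to 6.93) for Ldb3. Against replicate 2 all of these were smaller, at 69.4 for Ttn, 52.5 for Neb, 5.69 for Actn3 and 4.53 for Ldb3. For the genes with 2 or 3 counts in replicate 1, the ratios to it were 622 (172 to 5145) for Csrp3, 582 (161 to 4808) for Actn2, 310.0 (106 to 1506) for Myoz2, 128 (35.1 to 1061) for Tcap and 26.5 (7.04 to 224) for Myoz1. Against replicate 2 they were 71.0 (44.2 to 122) for Csrp3, 49.0 (32.5 to 77.6) for Actn2 and 75.1 (42.8 to 146) for Myoz2. Tcap was then at 14.6 (8.96 to 25.4) and Myoz1 at 17.1 (5.60 to 85.3). The Actn2 ratio against replicate 2 was below those of Ttn and Neb. Its interval held both of theirs (65.0 to 74.1 for Ttn and 46.9 to 58.9 for Neb). The log2 change was 7.98 for Ttn (SE 0.165, adjusted p = 3.94e-10, edgeR with the tag term) and 2.67 for Ldb3 (SE 0.128, adjusted p = 1.69e-07). Without the tag term these were 6.79 (SE 1.13, adjusted p = 0.0762, edgeR) and 2.43 (SE 0.292, adjusted p = 0.0629).

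After 48 hours, all 9 counted genes were lower in the knockdown library than in the control library, and what remained ranged from 0.279% of the control level for Csrp3 to 32.5% for Actn3. The first fit called 0 of the 9, and 0% of all genes (edgeR). At an unadjusted p under 0.05 stood 7 of the 9 and 8.4% of all genes, and DESeq2 called 5, against 2.12% of all genes. With the tag term all 9 fell, where 11.2% of all tested genes were called lower. The direction of Myoz1 was again fixed in advance, since it was tested only through its 63 counts in MT control. The median log2 change of the 9 was -5.81, against 0.02 over all tested genes. Summed markers of differentiated muscle differed between these libraries in the same direction (5715 and 91.9 CPM), and their part in the result was not tested.

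By ratio of CPM, Actn3 kept 32.5% of the control level (31.0 to 34.1) and Ldb3 20.4% (19.2 to 21.8). Myoz1 kept 6.55% (1.32 to 20.0), Tcap 5.43% (2.77 to 9.62), Neb 1.96% (1.74 to 2.21) and Ttn 1.62% (1.51 to 1.72). Least was left of Myoz2, at 0.622% (0.202 to 1.46), Actn2, at 0.497% (0.161 to 1.16), and Csrp3, at 0.279% (0.0575 to 0.817). The interval of Actn3 overlapped no other, and that of Ldb3 overlapped only the wide one of Myoz1. The intervals of Neb and Ttn did not overlap, while those of Myoz2, Actn2 and Csrp3 did.

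**Figure D2:**
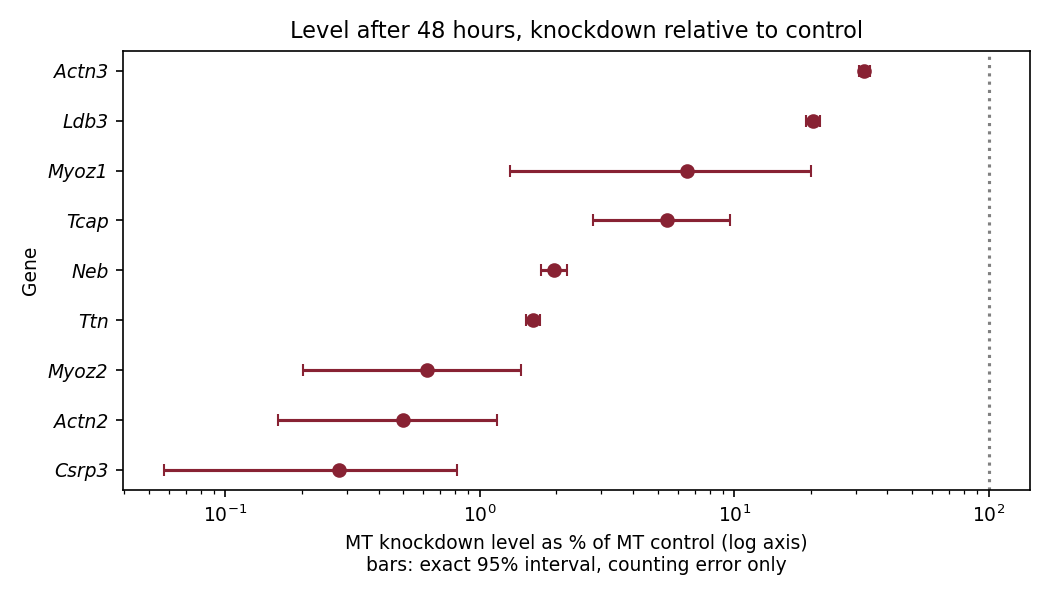
Level of each of the 9 counted genes in MT knockdown as a percentage of MT control (log axis), 1 library per group, with exact 95% intervals that cover counting error only. Actn3 (32.5%) and Ldb3 (20.4%) keep the most and Csrp3 (0.279%) the least.

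The fitted changes for this comparison had the same size in both fits and differed in their error. For Ttn the log2 change was -6.09 (SE 0.186, adjusted p = 3.52e-08, edgeR with the tag term), with an SE of 1.49 and an adjusted p of 0.523 without it. It was -5.81 for Neb (adjusted p = 6.34e-08, edgeR with the tag term; 0.613 without it) and -7.76 for Actn2 (4.34e-06 and 0.523). Ldb3 changed by -2.43 (2.22e-06 and 0.473) and Actn3 by -1.76 (1.82e-05 and 0.768). Myog, the transcription factor of terminal muscle differentiation, kept 3.79% of its control level (3.57 to 4.03). The shares of Neb, Ttn, Myoz2, Actn2 and Csrp3 were under that of Myog, and those of Actn3, Ldb3, Myoz1 and Tcap above it, though the interval of Myoz1 and that of Tcap reached it.

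On differentiation of knockdown cells, Actn3 and Ttn were higher than in both MB knockdown libraries, Ldb3 was lower than in both, and Neb stood between them and near replicate 2. The first fit called 0 of the 9, and 0% of all genes (edgeR). At an unadjusted p under 0.05 stood 0 of the 9 and 15.2% of all genes, and DESeq2 called 0, against 4.56% of all genes. With the tag term Ttn, Neb, Actn3 and Csrp3 rose, 4 of the 9, where 16.6% of all tested genes were called higher and 16.5% lower. Relative to MB knockdown replicate 1, Neb was 10.2 times as high (7.19 to 14.8), Ttn 5.69 times (4.90 to 6.65) and Actn3 4.47 times (4.08 to 4.90). Relative to replicate 2, Neb was at 0.995 (0.848 to 1.17), Ttn at 1.90 (1.71 to 2.11) and Actn3 at 1.18 (1.11 to 1.25).

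The call of Csrp3 (adjusted p = 0.0384, edgeR with the tag term) rests on 3 counts in MT knockdown and on 0 and 2 in the MB knockdown libraries. Ldb3 was at 0.911 (0.843 to 0.984) and 0.736 (0.683 to 0.793) of the MB knockdown replicates, and its log2 change of -0.16 did not pass (adjusted p = 0.367, edgeR with the tag term). Tcap, Myoz1, Myoz2 and Actn2 had 3 to 12 counts in MT knockdown and did not pass. For Myoz2 the 5 counts in MT knockdown stood against 0 in MB knockdown replicate 1 (at least 2.15-fold higher, by the limit of 3 counts in that library) and 11 in replicate 2 (a ratio of 0.548, 0.149 to 1.71). The sign for Actn2 differed between the fits, at 0.66 with the tag term and -0.85 without it, and neither value passed.

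**Figure D3:**
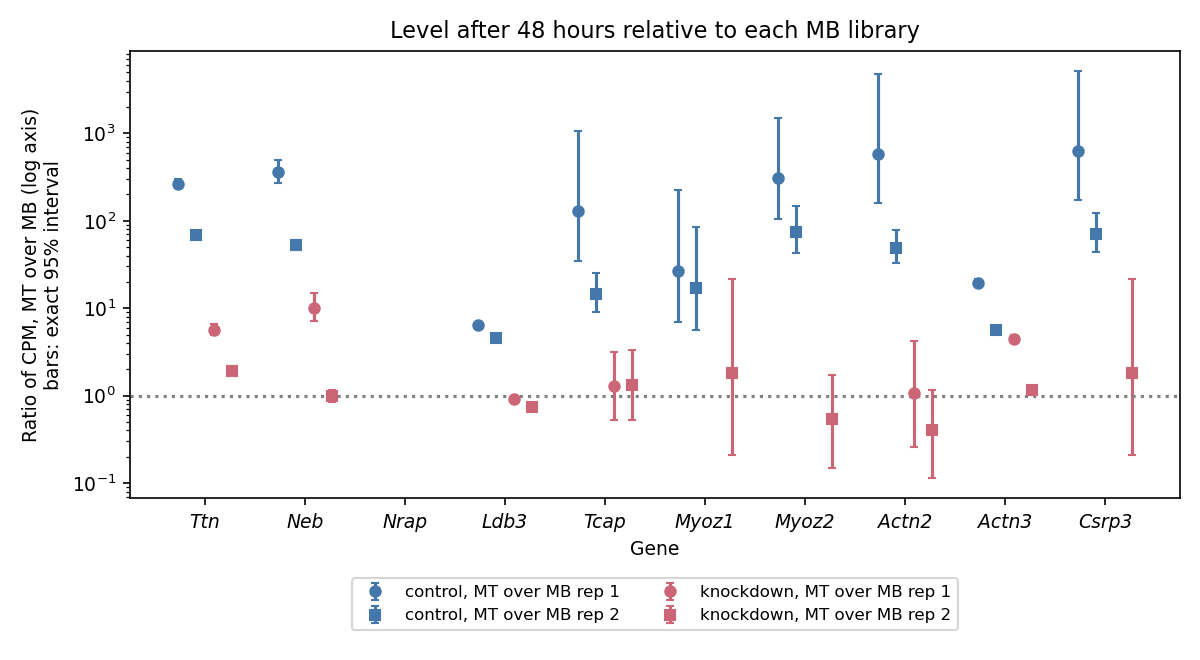
Ratio of CPM in MT over each MB library of the same arm (log axis, 1 point per MB replicate, exact 95% intervals for counting error). Control ratios lie between 4.53 and 622, and knockdown ratios against MB libraries with counts between 0.402 and 10.2.

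In proliferating cells the arms differed far less, and the genes did not move in 1 direction. The first fit called 0 of the 9, and 0% of all genes (edgeR). At an unadjusted p under 0.05 stood 0 of the 9 and 2.76% of all genes, and DESeq2 called 0, against 0.304% of all genes. With the tag term 3 of the 9 passed, where 3.84% of all tested genes did. Actn3 rose (2.51% of all genes were called higher), and Ttn and Csrp3 fell (1.34% were called lower). Myog was at 0.543 (0.339 to 0.858) of control between the replicate 1 libraries and at 0.428 (0.389 to 0.471) between the replicate 2 libraries. The part of this difference in the result was not tested.

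Within pairs of MB libraries of 1 replicate number, Actn3 was 1.40 times as high in knockdown (1.23 to 1.60) for replicate 1 and 1.57 times (1.47 to 1.69) for replicate 2. Its log2 change in MB was 0.55 (SE 0.103, adjusted p = 0.0161, edgeR with the tag term), although the control and knockdown libraries overlapped. Without the tag term it was 0.60 (adjusted p = 1, edgeR), and it became -0.03 without MB_shCtrl replicate 1 and -0.70 without MB_shKap1 replicate 2. Ttn was at 0.752 (0.623 to 0.907) of control in replicate 1 and at 0.589 (0.530 to 0.653) in replicate 2, and its arms overlapped too. Its log2 change in MB was -0.64 (SE 0.122, adjusted p = 0.0176, edgeR with the tag term), or -0.71 without the term (adjusted p = 1) and 0.57 without MB_shCtrl replicate 2.

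Ldb3 was higher within both pairs, by 1.45 (1.34 to 1.58) and 1.26 times (1.17 to 1.35), and both its knockdown libraries lay above both its control libraries. It did not pass (log2 change 0.40, SE 0.099, adjusted p = 0.0536, edgeR with the tag term). Neb did not pass, at 0.704 (0.442 to 1.11) and 1.04 (0.886 to 1.21) of control within the pairs. Csrp3 (adjusted p = 0.0327, edgeR with the tag term) had 19 counts in MB control and 2 in MB knockdown, of which 17 and 2 were in replicate 2, a ratio of 0.110 (0.0123 to 0.461). Tcap, Myoz1, Myoz2 and Actn2 had 2 to 25 counts per arm and did not pass.

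The knockdown effect in MT minus that in MB was below 0 for all 9 counted genes. The first fit called 0 of the 9, and 0% of all genes (edgeR). At an unadjusted p under 0.05 stood 3 of the 9 and 5.01% of all genes, and DESeq2 called 2, against 0.935% of all genes. With the tag term 7 of the 9 passed, all lower, where 6.63% of all tested genes were called lower. The difference of log2 changes was -5.45 for Ttn (SE 0.207, adjusted p = 6.97e-07, edgeR with the tag term) and -2.31 for Actn3 (SE 0.173, adjusted p = 2.65e-05). Csrp3 (adjusted p = 0.0503, edgeR with the tag term) and Myoz1 (0.402) did not pass. The 5 comparisons draw on the same 6 libraries.

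Between MB replicates of 1 arm, Ttn, Neb and Actn3 differed by more than between the arms. Replicate 2 of control was above replicate 1 by 6.95 times for Neb (5.09 to 9.70), 3.82 for Ttn (3.32 to 4.41), 3.38 for Actn3 (3.01 to 3.80) and 1.43 for Ldb3 (1.32 to 1.55). In knockdown the ratios were 10.2 (7.25 to 14.9) for Neb, 2.99 (2.55 to 3.52) for Ttn, 3.80 (3.47 to 4.17) for Actn3 and 1.24 (1.16 to 1.32) for Ldb3. Myog differed between these replicates by 26.1 times in control and 20.6 times in knockdown. Replicate number and file tag coincide in MB, so the state of the cultures and whatever the tag denotes cannot be told apart.

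Per kilobase of annotated exon, Actn3 was the most abundant scaffold transcript in MT control, at 61.2 CPM per kb, followed by Ldb3 at 24.9, Neb at 15.1, Ttn at 13.6 and Csrp3 at 11.1 CPM per kb. Next came Actn2 with 7.31, Myoz2 with 6.48, Tcap with 6.43 and Myoz1 with 0.668 CPM per kb. In this single library the counting intervals of Myoz2 (6.10 to 6.87) and Tcap (5.73 to 7.20) overlapped. That of Tcap reached that of Actn2 (6.93 to 7.70), while the other neighbours were apart. These distances depend on the length used. With the longest transcript as length the order was the same, but Actn2 and Myoz2 were nearly equal, at 9.20 and 9.19 CPM per kb. Tcap stayed at 6.43 CPM per kb. Neb thus stood slightly above Ttn per kb although Ttn, with 117 kb of exon against 26.6 kb, had the higher CPM. In MT knockdown Actn3 (19.9 CPM per kb) and Ldb3 (5.10 CPM per kb) still led, followed by Tcap with 0.349 (0.18 to 0.61, from 12 counts) and Neb with 0.296 CPM per kb (0.262 to 0.332), whose intervals overlapped. Actn3 and Ldb3 also held the first places in all 4 MB libraries, Ldb3 first in both replicate 1 libraries and Actn3 first in both replicate 2 libraries.

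Genes with the pattern most like that of the scaffold were ranked by Pearson's r of log2 CPM over the 6 libraries with the median of the centred scaffold genes. They were Tmem38a (r = 0.998), a cation channel of the sarcoplasmic reticulum, Trim72 (0.998), a membrane repair protein, the skeletal actin gene Acta1 (0.998), Tmod1 (0.997), which caps thin filaments at the pointed end, and Cav3 (0.997), the muscle caveolin. Of 13802 genes at 1 CPM or more in some library, 302 (2.19%) had r over 0.95, and for such a pattern r rests largely on the single MT control library. Acta1 and Cav3 were the only ones of the 5 also ranked there with a prior count of 0.5 in place of 2. Within the scaffold, r ran from 0.902 for Actn3 to 0.995 for Ttn, and it is not defined for Nrap. Each scaffold gene is part of that median, which raises its r, so these values cannot be set against those of the genes above.

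Other proteins of the sarcomere's ends and middle were followed in 4 lists, with calls from the fit with the tag term, since the first fit called 0 of their genes in any comparison. Of 16 partners of titin and of the M-band, 11 fell and 1 rose in MT knockdown against MT control. Of all genes, 11.2% were called lower and 9.09% higher. The median log2 change of the partners was -2.44. Ankrd2, among the 11, was tested only through MT control (8.03 CPM, at most 0.197 CPM elsewhere), so its direction was fixed in advance. The myomesins Myom3 and Myom2, which crosslink thick filaments at the M-band, changed by -6.08 and -5.03. Obsl1, a cytoskeletal adaptor, changed by -3.30 (163 and 18.2 CPM in MT control and knockdown). Fhl2, a LIM protein that binds titin, rose, from 79.7 CPM in MT control to 195 CPM in MT knockdown (log2 change 1.15, SE 0.162, adjusted p = 0.00129, edgeR with the tag term).

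Of 12 genes for thin filament ends and the support of nebulin, 6 fell and 0 rose in MT knockdown against MT control. Of all genes, 11.2% were called lower and 9.09% higher. The median of the 12 was -5.11, or -2.87 with Xirp2, at 0 counts in MT knockdown, set at 3 counts. The 6 included the pointed-end proteins Lmod2 (-6.37), Tmod1 (-5.70) and Lmod3 (-5.38) and the nebulin-stabilising Klhl40 (-4.98). The general capping protein genes Capza1, Capza2 and Capzb did not pass, with log2 changes of -0.06, 0.10 and -0.01. Of 15 other Z-disc genes, 14 were tested (Myoz3 was not, and Myot only through its 0.261 CPM in MT control). Of the 14, 10 fell and 0 rose, with a median of -1.04. Among them were Mypn, a nebulin-binding protein of the Z-disc (-5.73), Synpo2l (-4.21), the filamin Flnc (-1.86, at 993 and 301 CPM) and the chaperone Cryab (-1.68).

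Relatives of the scaffold that serve the cytoskeleton outside the sarcomere moved in both directions. Of 8, 3 rose and 2 fell, where 9.09% of all genes were called higher and 11.2% lower. The median of the 8 was 0.28. Csrp2, a LIM protein related to Csrp3, rose by 1.10 on the log2 scale (89.9 and 212 CPM in MT control and knockdown), and Pdlim1 and Lasp1, a nebulin relative of adhesion sites, rose by 0.79 and 0.77. The alpha-actinin Actn4 fell by 0.60 and Pdlim4 fell by 0.48. Actn1, another widely expressed alpha-actinin, was at 312 and 392 CPM and did not pass (log2 change 0.19). Of 6 smooth muscle markers, 3 rose and 1 fell in the same comparison, with a median log2 change of 1.22. Cnn1 stood at 5.14 and 57.1 CPM in MT control and knockdown (log2 change 3.34), Tagln at 280 and 765 CPM (1.31) and Lmod1 at 19.5 and 46.7 CPM (1.12). Their sum, 5551 and 5642 CPM, is mostly Acta2, at 5116 and 4685 CPM, which did not pass. The part of these markers in the result was not tested.

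**Figure D4:**
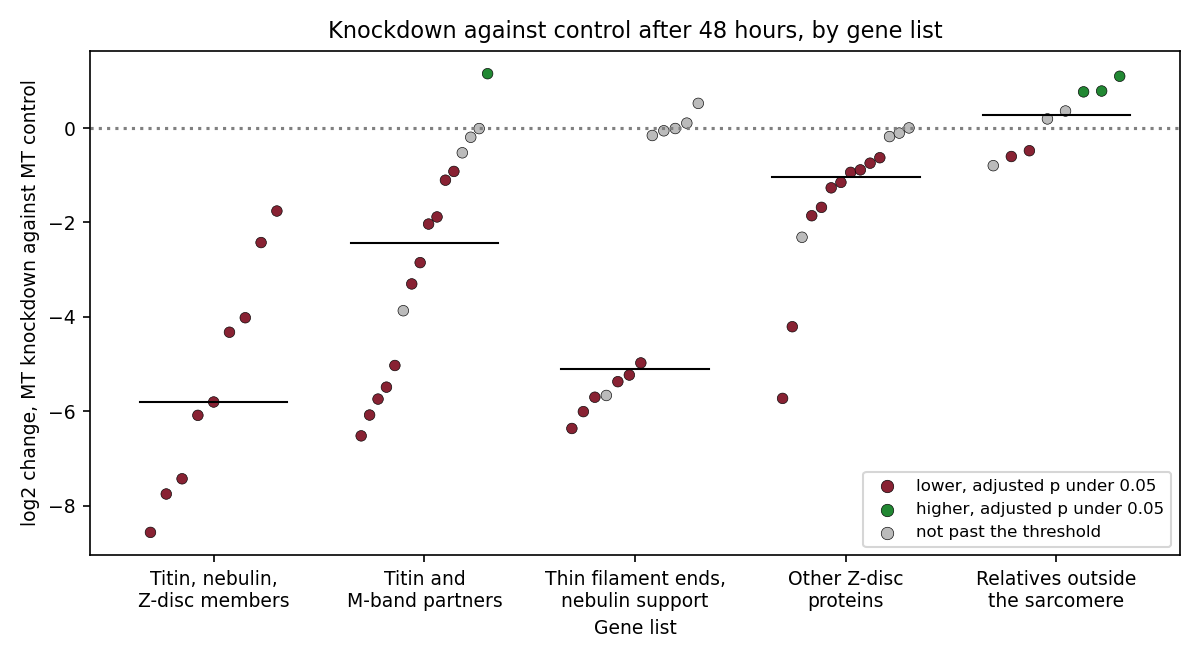
Log2 change in MT knockdown against MT control (fit with the tag term) for each tested gene of the scaffold and of the 4 lists, with the median of each list marked and genes past an adjusted p of 0.05 set apart by colour. The 9 scaffold genes lie at -1.76 or lower (the lowest, Csrp3, has 3 counts in MT knockdown, so its fitted value depends on the prior count), and the 8 relatives outside the sarcomere between -0.80 and 1.10.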

How the data were processed

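The authors deposited raw counts of reads per Ensembl gene as whole numbers, 1 file per library. The submitters' processing notes name TopHat2 2.0.11, mm9 and HTSeq; annotation release, counting mode and strand setting were not given. Rows without a gene stayed out of totals and tests (no feature 5.18% to 8.07%, ambiguous 2.81% to 2.93% of reads). Symbols and exon lengths came from GENCODE M21 (GRCm38) by identifier, with symbols for 32919 of 37991 genes.

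Groups came from sample titles. The main test was edgeR 4.0.16 in R 4.3.3 (robust quasi-likelihood, TMM, filterByExpr by group) over all 6 libraries, with Benjamini-Hochberg adjustment over 16472 genes in each of 5 contrasts. The filter can keep a gene through a single library, as it kept Myoz1, Ankrd2 and Myot through MT control. Such a gene can only come out higher there. The second fit added the file-tag term, which in MB is a block of replicate numbers, leaving 1 residual degree of freedom against 2 and a biological coefficient of variation of 9.74% against 32.9%. CPM are counts scaled to a library's gene total. Standard errors were derived from the quasi-likelihood test. Ratios have exact Clopper-Pearson 95% intervals (scipy 1.17.1), and a 0 was limited at 3 counts; both cover counting error only. Where a group had at most 3 counts of a gene, the fitted change is set partly by the prior count, so ratios or counts are given instead, except in medians, in the plot by gene list and in the limits.

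The scaffold genes and the lists were chosen with earlier results of these data known. Named from each list are up to 4 genes with the smallest p in MT knockdown against control with the tag term, and those passing against most of their list; 1 gene so chosen is not reported here. Capza1, Capza2, Capzb, Actn1, Xirp2, Habp2, the smooth muscle markers and the genes of the last part were added after their values were seen. Alternatives were RLE scaling, total library size, no low-count filter, DESeq2 1.42.0, the tag term alone and with each of these, and leaving out each MB library. For levels per kb, the longest transcript was also used as length.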

Additional observations from a re-analysis of the deposited data

Results flagged for a closer look

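For 7 scaffold genes the knockdown effect differed between MT and MB by a test of the difference itself, in the fit with the tag term (edgeR, Benjamini-Hochberg). All 7 were lower, where 6.63% of all tested genes were called lower. The MT effect minus the MB effect, in log2, was -7.44 for Actn2, -6.81 for Myoz2, -5.70 for Neb, -5.45 for Ttn, -4.55 for Tcap, -2.83 for Ldb3 and -2.31 for Actn3. For Actn3 and Ldb3 the MB and MT knockdown differences had opposite signs (0.55 and -1.76 for Actn3, 0.40 and -2.43 for Ldb3, the MB value of Ldb3 not passing). MT has 1 library per arm, and without the tag term 0 of the 7 passed (adjusted p between 0.927 and 1, edgeR).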

How the results depend on the processing

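Without the tag term, edgeR called 0 scaffold genes in each comparison under RLE scaling, total library size and leaving out any 1 MB library, and 1 (Ldb3, control differentiation) with no low-count filter. Replicate numbers were checked for pairing by the correlation of replicate differences between the MB arms, r = 0.763 over 16472 genes, from only 2 pairs. Counts of scaffold genes (all genes in brackets) follow for DESeq2, then for the replicate block (the tag term) alone, with RLE scaling, with total library size, with no filter and with DESeq2. For knockdown in MB they were 0 (50), 3 (633), 3 (539), 3 (510), 4 (1046) and 1 (329). For knockdown in MT they were 5 (349), 9 (3344), 9 (3211), 9 (3715), 9 (3740) and 8 (1482). For control differentiation they were 8 (2314), 9 (7398), 9 (7208), 9 (7385), 9 (7534) and 8 (4224). For knockdown differentiation they were 0 (751), 4 (5446), 4 (5337), 4 (5242), 4 (5856) and 3 (2763). For the difference of knockdown effects they were 2 (154), 7 (1722), 7 (1605), 7 (1764), 8 (2245) and 8 (901). Without the block, control differentiation called 78 genes with RLE scaling, 582 with no filter and 0 to 141 without 1 MB library (136 without MB_shKap1 replicate 1, 141 without MB_shKap1 replicate 2), and knockdown differentiation 2 with no filter.

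Control differentiation kept its direction for the 9 genes in all 14 settings. Knockdown in MT compares only the 2 MT libraries, so leaving out an MB library or adding the block could not turn its direction. For knockdown differentiation, Actn2 was -0.85 without the block and 0.66 with it, or 0.65 with RLE scaling, 0.74 with total library size, 0.62 with no filter and 0.59 with DESeq2, none passing. Leaving out 1 MB library turned directions that rest on it, none of them called without the block. Log2 changes for knockdown in MB then ran from -1.73 to 0.57 for Ttn, -2.55 to 1.97 for Neb, -0.75 to 2.33 for Tcap, -6.03 to 0.76 for Myoz2, -1.29 to 2.22 for Actn2, -0.70 to 1.74 for Actn3 and -4.69 to 2.54 for Myog. For knockdown differentiation they ran from -0.12 to 3.27 for Neb, -0.97 to 5.51 for Myoz2 and -1.41 to 0.026 for Actn2, and for the difference of effects from -3.63 to 0.46 for Myoz1. The block left no residual degree of freedom once a library was out, so those were not combined, and the MT libraries cannot be left out.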

Other observations

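On differentiation, the 4 lists had the following counts in each arm, in the fit with the tag term (edgeR, Benjamini-Hochberg); differences between these counts were not tested. Of the 16 titin and M-band partners, 15 rose and 0 fell in control cells (22.3% and 22.6% of all genes). In knockdown cells 10 rose and 1 fell (16.6% and 16.5% of all genes). Ankrd2 of this list and Myot of the other Z-disc list were tested only through MT control. Their direction in control cells was thus fixed in advance. Ankrd1, a titin-binding ankyrin repeat protein, was the one that fell in knockdown cells (log2 change -0.54, against 0.53 in control cells). Of the 12 genes for thin filament ends and nebulin support, 7 rose and 0 fell in each arm. Of 14 tested other Z-disc genes, 11 rose and 0 fell in control cells, and 8 rose and 1 fell in knockdown cells. Of the 8 relatives outside the sarcomere, 1 rose and 6 fell in control cells, and 1 rose and 5 fell in knockdown cells. Nebl, a nebulin relative, changed by -2.70 and -3.32.

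In proliferating knockdown cells 2 of the 16 titin and M-band partners and 3 of the 14 other Z-disc genes rose with the tag term, against 2.51% of all genes. Of the 12 genes for thin filament ends and nebulin support 0 rose and 0 fell, with 11 below 0, and of the 8 relatives 1 rose. Of 6 smooth muscle markers 4 rose, among them Lmod1 (2.17) and Cnn1 (1.15), and their part in the result was not tested. Igfn1, an immunoglobulin-domain protein of skeletal muscle, changed by 1.95, Sorbs2, an adaptor of Z-discs and stress fibres, by 1.84 and Pdlim3, an alpha-actinin-binding LIM protein, by 1.26. Trim55, a titin-binding ubiquitin ligase, fell (-0.81), where 1.34% of all genes were called lower. Igfn1 stood at 0.0477 and 0.418 CPM in the MB control replicates, and at 0.129 and 1.76 CPM in those of MB knockdown.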
